A study of Homo sapiens with 6 samples.

Results

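Translation initiation and elongation factors are the proteins that bring the ribosome to an mRNA, place it on the start codon and carry it from codon to codon. Their transcripts were followed in MIA PaCa-2, a long-established line from a human pancreatic carcinoma, with and without the long non-coding RNA gene LINC00901. The factors were taken by name: rows of the expression table that began with EIF1 to EIF6, EEF1 or EEF2, stood for a single gene and had at least 1 FPKM, that is, fragments scaled to library size and to transcript length, in at least 3 of the 6 libraries. This gave 57 genes of 18268 rows in the table and of 9624 rows tested. Total RNA had been sequenced from 3 libraries labelled LINC00901 KO (KO 1 to 3) and 3 labelled LCV2, the vector control (vector control 1 to 3). Both groups were grown in DMEM with fetal bovine and horse serum. The labels do not state whether the knockout cells were a clone or a pool, nor whether the libraries came from separate cultures, so p-values measure the spread between these libraries, which may be technical.

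In initiation, the small ribosomal subunit carries EIF1, EIF1A, EIF3 and a ternary complex of EIF2, GTP and initiator tRNA. It is recruited to the capped 5′ end by EIF4F, made of the cap-binding EIF4E, the scaffold EIF4G and the helicase EIF4A. EIF4E-binding proteins block this step when mTORC1 does not phosphorylate them, and, at a separate step, stress-activated kinases of the EIF2 alpha subunit inhibit the exchange factor EIF2B and so lower the ternary complex. In elongation, EEF1A delivers aminoacyl-tRNA and EEF2 translocates the ribosome, and EEF2 kinase inactivates EEF2 by phosphorylation. Many elongation factor mRNAs, like those of ribosomal proteins, begin with a 5′ terminal oligopyrimidine tract, a C followed by further C or U, through which mTORC1 controls their translation.

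The tract could be read at the annotated transcription start of several factors. These starts are shown because the median position of vector control 1 among the controls differed between factors with and without it. Each line gives 25 bases before and 15 bases from the start, 5′ to 3′ on the gene's strand, from RefSeq on GRCh38.p14. Capitals mark an uninterrupted run of C and T that begins with C at the start itself and is at least 5 bases long. EEF1A1, EEF2 and EEF1B2 are elongation factors, EIF3F is an EIF3 subunit, EIF4B assists the EIF4A helicase and EIF2D is a non-canonical initiation factor. EEF2K, EIF4EBP2, EIF2AK2 and EIF1 hold no such run and are shown for contrast. The factors shown did not split cleanly by the log2 difference of vector control 1 from the mean of vector control 2 and 3. With the tract it was -0.15 for EEF1A1, -0.74 for EEF2, 0.17 for EEF1B2, -0.18 for EIF3F, 0.01 for EIF4B and -0.25 for EIF2D. Without the tract it was 0.94 for EEF2K, 0.70 for EIF4EBP2, -0.003 for EIF2AK2 and -0.96 for EIF1.
EEF1A1: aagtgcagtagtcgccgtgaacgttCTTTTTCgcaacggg
EEF2: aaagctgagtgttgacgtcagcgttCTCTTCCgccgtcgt
EEF1B2: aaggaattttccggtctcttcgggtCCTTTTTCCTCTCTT
EIF3F: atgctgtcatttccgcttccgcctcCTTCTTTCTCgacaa
EIF4B: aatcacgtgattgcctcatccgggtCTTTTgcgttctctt
EIF2D: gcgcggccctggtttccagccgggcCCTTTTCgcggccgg
EEF2K: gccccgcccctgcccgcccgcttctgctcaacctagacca
EIF4EBP2: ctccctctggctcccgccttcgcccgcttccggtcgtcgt
EIF2AK2: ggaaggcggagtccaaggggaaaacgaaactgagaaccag
EIF1: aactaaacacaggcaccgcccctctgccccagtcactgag

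These windows lie at chr6:73521018-73521057 on the minus strand for EEF1A1, chr19:3985449-3985488 on the minus strand for EEF2 and chr2:206159870-206159909 on the plus strand for EEF1B2. The window of EIF3F is chr11:7987312-7987351 (plus), that of EIF4B chr12:53006431-53006470 (plus) and that of EIF2D chr1:206612451-206612490 (minus). Those without a tract are chr16:22206253-22206292 (plus) for EEF2K, chr10:70404120-70404159 (plus) for EIF4EBP2, chr2:37156966-37157005 (minus) for EIF2AK2 and chr17:41688860-41688899 (plus) for EIF1. Of the 57 factors, 44 had a start window in the RefSeq table, and 13 of these (29.5%) held the tract. The share was 4.07% of all 35116 windows in that table, and of the 7074 tested genes with a window 7.85% held it at one of their starts. A run of letters at an annotated start is a description and does not show that the transcript begins there in these cells.

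The libraries themselves set limits. FPKM summed to between 123107 and 134389 per library, and depth in reads could not be recovered. LINC00901 had 0 rows in the table, so the knockout was not checked in these values and each direction rests on the labels. Across the genes tested, r was 0.970 between KO 2 and KO 3 and 0.979 between vector control 2 and its fellow, vector control 3, but vector control 1 was closer to KO 2 (0.925) and KO 3 (0.932) than to vector control 2 (0.904) and vector control 3 (0.906). Its lowest correlation was with KO 1 (0.900). The line is labelled epithelial. KRT18 ran from 28.78 to 58 FPKM in KO and from 70.41 to 79.42 FPKM in vector control libraries, without overlap. KRT19 ran from 12.69 to 25.11 FPKM in KO and from 17.46 to 39.34 FPKM in vector control libraries, with overlap. VIM, the highest of these markers, ran from 459.52 to 674.8 FPKM in KO and from 544.33 to 626.27 FPKM in vector control libraries, with overlap. EPCAM was at most 0.14, KRT7 at most 0.11 and CDH1 at most 0.02 FPKM. The leukocyte markers PTPRC and CD3E were listed at 0 in all 6 libraries, and so were the endothelial VWF and KDR and the fibroblast DCN. The summed level of the leukocyte markers ran from 0.32 to 0.40 FPKM in KO and from 0 to 1.3 FPKM in vector control libraries, that of 4 endothelial markers was 0 in KO and 0.14 to 0.34 FPKM in vector control libraries, and that of 6 fibroblast markers, almost all COL3A1 and COL1A2, ran from 68.15 to 96.84 FPKM in KO and from 68.91 to 98.89 FPKM in vector control libraries. COL3A1 ran from 16.46 to 41.24 FPKM in KO and from 43.1 to 62.02 FPKM in vector control libraries, and COL1A2 from 50.63 to 56.18 FPKM in KO and from 24.72 to 35.84 FPKM in vector control libraries, so that both separated the groups, in opposite directions. The part of these markers in the results was not tested. In bulk RNA, fewer cells that express a gene and less of its RNA per cell cannot be told apart.

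No factor passed the test between knockout and control. Limma on log2(FPKM + 1), with Benjamini-Hochberg adjustment over all 9624 genes, called 0 of the 57 factors, where 1.35% of all genes were called at an adjusted p below 0.05 (0.509% higher and 0.842% lower in KO). The lowest adjusted p was 0.143, for EEF2K. At an unadjusted p below 0.05 there were 4 factors (7.02%), with EEF2K, EIF4EBP2 and EIF2AK2 on the higher side and EEF1A2 on the lower side in the KO libraries, against 17.5% of all genes (11.5% higher and 6% lower). The 3 KO values lay entirely above the 3 control values in 6 factors and entirely below them in 4, together 17.5% of the factors against 23.8% of all genes (15.4% with KO higher and 8.35% with KO lower). By both counts the factors lay below the share of all genes. Their median log2 fold change was -0.06, with 23 above and 34 below 0, beside 0.08 for all genes tested. The call depended on vector control 1. Without it EEF2K, EEF1AKMT1, EEF1A2 and EIF1B were called, 7.02% of the factors, where 13.8% of all genes were called. Robust limma with array weights called 17 factors (29.8%), where 41.8% of all genes were called.

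**Figure D1:**
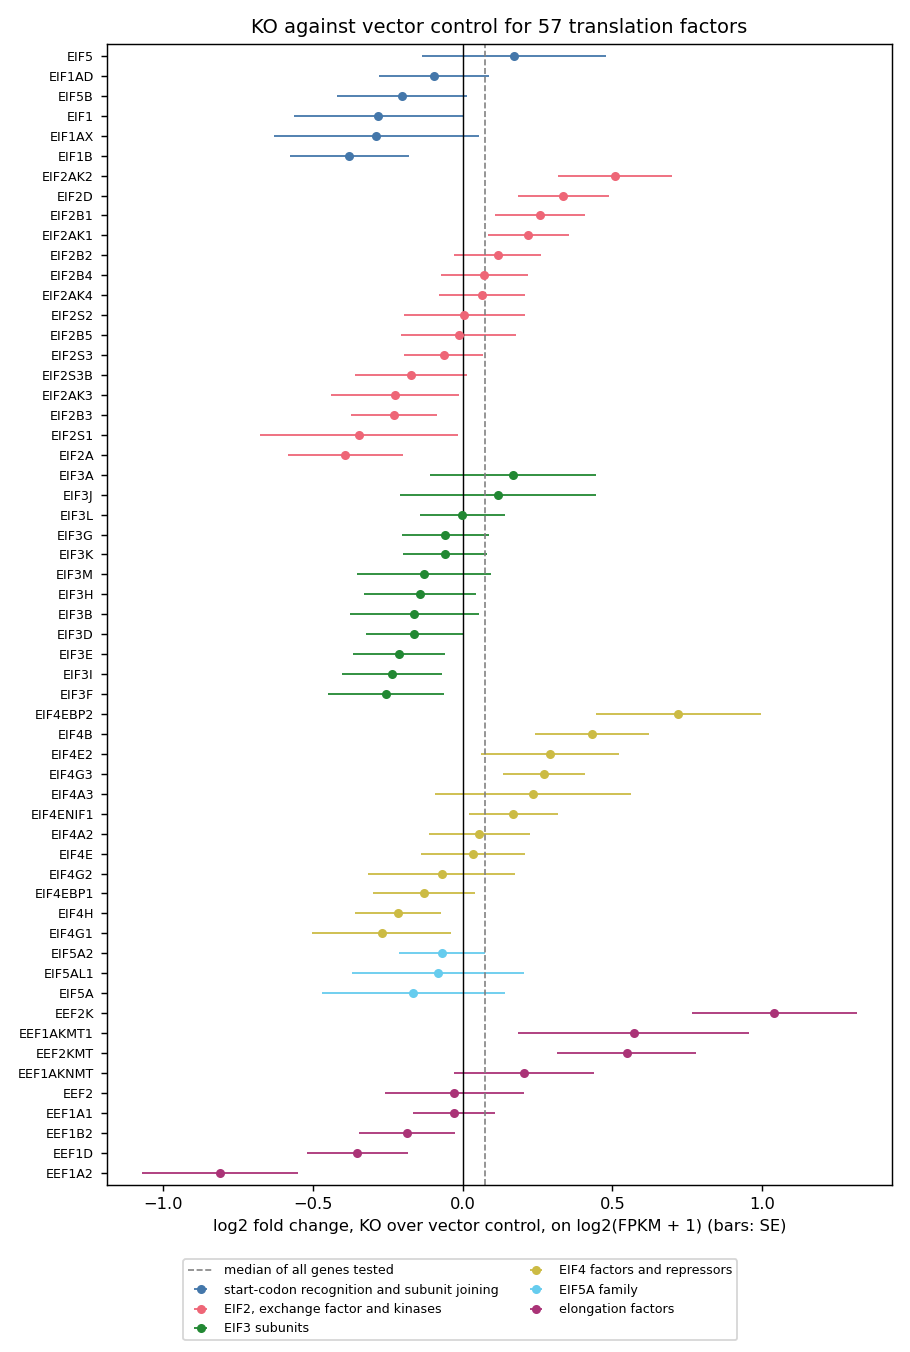
Log2 fold change of each of the 57 factors, KO over vector control, on the log2(FPKM + 1) scale (x axis), by functional class (colour) with its standard error (bars). EEF2K at 1.04 and EEF1A2 at -0.81 are the ends of the range, both among the elongation factors, and no factor passed the adjusted test.

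The elongation class held both the highest levels and both ends of the range of fold changes. EEF1A1, the main aminoacyl-tRNA carrier, stood at 1418.71, 1408.48 and 1462.61 FPKM in KO 1 to 3, against 1358.24, 1552.46 and 1470.67 FPKM in vector control 1 to 3. The groups overlapped, and EEF1A1 had the lowest spread of all 57 factors over the 6 libraries, with an SD of 0.066 on the log2 scale. Its log2 fold change was -0.03 with a 95% interval from -0.35 to 0.30, and near-identical processed copies of the gene exist, so its level depends on how shared reads were assigned. EEF2, the translocase, stood at 781.12, 695.67 and 654.22 FPKM in the KO libraries, against 512.95, 816.09 and 900.74 FPKM in the vector controls. Vector control 1 was the lowest of all libraries for EEF2 and the other controls were the highest, so the KO values lay inside the control range (log2 fold change -0.03, 95% interval -0.58 to 0.52). EEF1A1 and EEF2 together made up 57.2% to 59.5% of the summed FPKM of the 57 factors in KO libraries and 51.5% (vector control 1) to 60.5% in vector controls.

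EEF2K encodes the calcium- and calmodulin-dependent kinase that inactivates EEF2. It stood at 5.16, 6.40 and 6.17 FPKM in the KO libraries, against 4.17, 1.72 and 1.67 FPKM in the vector controls. Every KO library was above every control, and vector control 1 was nearer to the KO libraries than to its own group. The means were 5.91 ± 0.660 FPKM in KO and 2.52 ± 1.43 FPKM in vector control libraries (SD, n = 3 each). The log2 fold change was 1.04 (SE 0.28, 95% interval 0.39 to 1.69, limma adjusted p = 0.143). Without vector control 1 it was 1.35 with an adjusted p of 0.00809, and without any other single library the adjusted p ran from 0.185 to 0.409.

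EEF1A2, the paralog of EEF1A1 known from muscle and neurons and raised in some tumours, was at the other end of the range. It stood at 25.67, 20.23 and 19.52 FPKM in the KO libraries, against 25.92, 45.53 and 49.02 FPKM in the vector controls. The groups did not overlap, but only just, since KO 1 and vector control 1 were nearly level. The means were 21.8 ± 3.36 FPKM in KO and 40.2 ± 12.5 FPKM in vector control libraries (SD, n = 3 each), with a log2 fold change of -0.81 (SE 0.26, adjusted p = 0.200). Without vector control 1 the log2 fold change was -1.09 with an adjusted p of 0.0170. As a share of the summed FPKM of both EEF1A genes, EEF1A2 made up 1.78%, 1.42% and 1.32% in KO 1 to 3, against 1.87%, 2.85% and 3.23% in vector control 1 to 3. KO 1 and vector control 1 lay side by side in that share, and the EEF1A pool was almost entirely EEF1A1 in every library.

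The exchange factor subunits that recharge EEF1A had log2 fold changes below 0 that did not pass. EEF1D stood at 11.69, 12.50 and 10.79 FPKM in the KO libraries, against 12.92, 14.73 and 18.22 FPKM in the vector controls. Its groups did not overlap (log2 fold change -0.35, SE 0.17, adjusted p = 0.329), as in 3 of the 9 elongation genes (33.3%) and 23.8% of all genes. Without vector control 3 the log2 fold change of EEF1D was -0.23. Robust limma called EEF1D at -0.45 (adjusted p = 0.0263), in a fit that called 41.8% of all genes. EEF1B2 stood at 87.00, 81.96 and 94.95 FPKM in the KO libraries, against 108.15, 84.51 and 109.56 FPKM in the vector controls, and its groups overlapped. The remaining elongation genes encode methyltransferases, which add methyl groups to EEF1A (EEF1AKMT1 and EEF1AKNMT) or EEF2 (EEF2KMT). EEF1AKMT1 stood at 5.39, 6.35 and 5.64 FPKM in the KO libraries, against 7.83, 1.99 and 2.60 FPKM in the vector controls, with vector control 1 above every KO library and the other controls well below. EEF2KMT stood at 3.18, 6.28 and 5.08 FPKM in the KO libraries, against 3.47, 2.78 and 2.51 FPKM in the vector controls. Here KO 1 lay inside the control range, and the adjusted p was 0.286 for EEF2KMT and 0.484 for EEF1AKMT1.

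**Figure D2:**
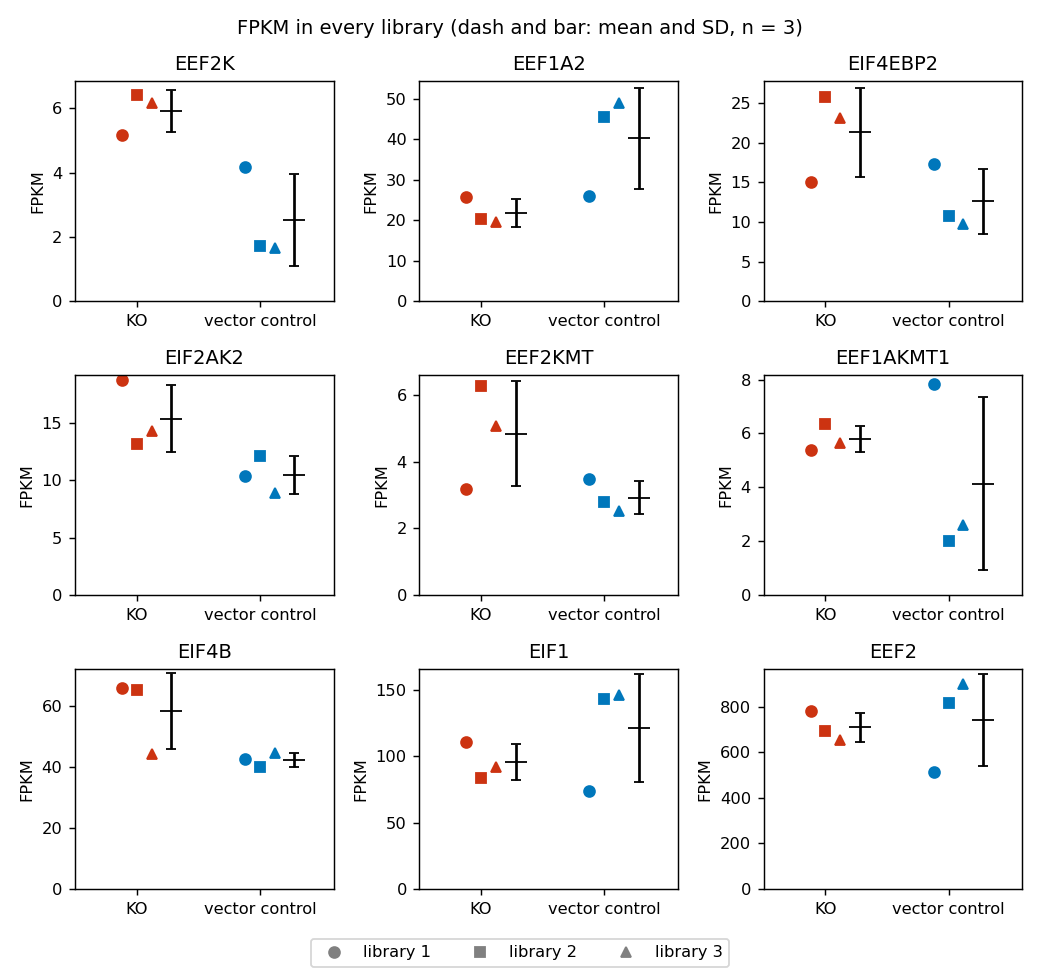
FPKM of 9 factors (y axes from 0) in the KO and vector control libraries, with marker shapes for libraries 1 to 3 and the mean and SD beside them (n = 3). EEF2K and EEF1A2 do not overlap between groups, and in both vector control 1 lies nearest to the KO libraries.

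The EIF2 class, 15 genes, had a median log2 fold change of 0.0048, with 8 above and 7 below 0, and 0 called. Among the subunits of EIF2 itself, EIF2S1, the alpha subunit that stress kinases phosphorylate, stood at 17.18, 16.27 and 12.55 FPKM in the KO libraries, against 31.55, 11.79 and 20.03 FPKM in the vector controls. The control range enclosed all 3 KO values. EIF2S2 (beta) stood at 42.21, 33.90 and 48.45 FPKM in KO, against 50.00, 34.34 and 39.96 FPKM in vector control libraries. EIF2S3 (gamma) stood at 54.00, 52.23 and 51.35 FPKM in KO, against 50.83, 56.41 and 57.86 FPKM in vector control libraries. EIF2S3 had the second lowest spread of the 57 factors (SD 0.074 on the log2 scale), against 0.23 for EIF2S2. The groups overlapped for both the beta and the gamma subunit. EIF2S3B, a near-identical relative of EIF2S3, lay at 2.60 FPKM or below, and reads shared with EIF2S3 could have been assigned to either.

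Of the 4 EIF2 alpha kinases, EIF2AK2 and EIF2AK1 had groups that did not overlap, with KO higher, as did 15.4% of all genes. EIF2AK2 encodes PKR, which is activated by double-stranded RNA, and stood at 18.69, 13.17 and 14.26 FPKM in the KO libraries, against 10.38, 12.14 and 8.89 FPKM in the vector controls. Vector control 1 lay between the other controls for EIF2AK2, unlike for EEF2K and EEF1A2. The means were 15.4 ± 2.92 FPKM in KO and 10.5 ± 1.63 FPKM in vector control libraries (SD, n = 3 each; log2 fold change 0.51, SE 0.19, adjusted p = 0.238), and 0.51 without vector control 1 (adjusted p = 0.147). EIF2AK1, which encodes the heme-regulated kinase HRI, stood at 27.43, 26.70 and 25.01 FPKM in the KO libraries, against 21.87, 21.44 and 24.32 FPKM in the vector controls (log2 fold change 0.22, adjusted p = 0.445). EIF2AK3, which encodes the endoplasmic reticulum kinase PERK, stood at 3.76, 4.22 and 5.31 FPKM in KO, against 3.88, 6.52 and 5.84 FPKM in vector control libraries. EIF2AK4, which encodes the amino acid sensor GCN2, stood at 9.49, 8.46 and 8.85 FPKM in KO, against 9.40, 8.07 and 8.05 FPKM in vector control libraries. The groups overlapped for PERK and GCN2, whose log2 fold changes were -0.23 and 0.07. With single libraries left out that of EIF2AK3 ran from -0.41 (without vector control 1) to -0.10 (without vector control 2).

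The 5 subunits of EIF2B, the exchange factor those kinases act through, had log2 fold changes from -0.23 to 0.26 with a median of 0.07. EIF2B1, the alpha subunit, stood at 9.73, 11.07 and 10.99 FPKM in the KO libraries, against 9.83, 8.27 and 8.04 FPKM in the vector controls. EIF2B4, the delta subunit, stood at 8.94, 7.48 and 8.0 FPKM in KO, against 8.28, 7.51 and 7.27 FPKM in vector control libraries. EIF2B3, the gamma subunit, was named after its values were seen, because its groups did not overlap: 9.10, 9.26 and 9.15 FPKM in KO, against 12.33, 10.26 and 10.32 FPKM in vector control libraries (log2 fold change -0.23, adjusted p = 0.445). The subunits of one complex thus had fold changes of either sign and none passed. EIF2A, which can deliver initiator tRNA outside the EIF2 complex, stood at 10.01, 7.20 and 6.95 FPKM in the KO libraries, against 11.27, 9.11 and 12.07 FPKM in the vector controls (log2 fold change -0.39, SE 0.19, adjusted p = 0.337). EIF2D, also named after its values were seen, stood at 4.98, 5.49 and 5.26 FPKM in KO, against 3.40, 4.46 and 4.03 FPKM in vector control libraries, without overlap (log2 fold change 0.34, adjusted p = 0.309). Groups did not overlap in 4 of the 15 genes of the EIF2 class (26.7%), near the 23.8% of all genes.

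Of the EIF4 class, 12 genes, 8 had log2 fold changes above 0 and 4 below, with a median of 0.11 and 0 called. EIF4E, the cap-binding protein, stood at 3.36, 3.15 and 3.18 FPKM in the KO libraries, against 4.05, 2.61 and 2.86 FPKM in the vector controls. The KO values lay inside the control range (log2 fold change 0.03, 95% interval -0.37 to 0.44). EIF4EBP1, the first of the EIF4E-binding repressors, stood at 41.01, 44.51 and 41.74 FPKM in KO, against 38.43, 47.17 and 55.32 FPKM in vector control libraries. EIF4EBP2, the second repressor, stood at 15.03, 25.71 and 23.10 FPKM in KO, against 17.29, 10.76 and 9.72 FPKM in vector control libraries. For EIF4EBP2 the overlap came from KO 1 and vector control 1 alone, and the log2 fold change was 0.72 (SE 0.28, 95% interval 0.07 to 1.37, adjusted p = 0.246). With both of these libraries left out it was 1.18 with an adjusted p of 0.00512, in a fit that called 17 factors (29.8%) and 37.1% of all genes. The libraries left out were the ones that overlapped, so this fit is no separate support for a change in EIF4EBP2. EIF4EBP2 made up 26.8%, 36.6% and 35.6% of the summed FPKM of the 2 repressors in KO 1 to 3, against 31.0%, 18.6% and 14.9% in vector control 1 to 3.

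EIF4G1, the main scaffold, stood at 41.88, 70.08 and 63.83 FPKM in KO, against 83.40, 61.24 and 65.12 FPKM in vector control libraries. EIF4G2, which encodes a scaffold without the EIF4E-binding site, stood at 56.35, 64.30 and 66.94 FPKM in KO, against 96.37, 53.41 and 54.53 FPKM in vector control libraries. Vector control 1 was the highest library for both scaffold genes, and the groups overlapped. EIF4G3, a paralog of EIF4G1, stood at 9.09, 9.99 and 9.88 FPKM in KO, against 8.05, 7.47 and 7.95 FPKM in vector control libraries, without overlap (log2 fold change 0.27, SE 0.14, adjusted p = 0.349). The log2 ratio of EIF4G3 to EIF4G1 was -2.57 ± 0.32 in KO and -3.15 ± 0.20 in vector control libraries (SD, n = 3 each), without overlap. EIF4E2, a paralog of EIF4E, stood at 4.24, 7.80 and 6.12 FPKM in KO, against 5.71, 3.92 and 4.42 FPKM in vector control libraries. The log2 ratios of EIF4E2 to EIF4E (0.86 ± 0.49 in KO, 0.57 ± 0.07 in vector control) and of EIF1B to EIF1 (-3.58 ± 0.21 and -3.45 ± 0.20) overlapped between the groups. EIF4B, which stimulates the helicase, stood at 65.91, 65.20 and 44.15 FPKM in KO, against 42.55, 40.05 and 44.53 FPKM in vector control libraries. KO 3 lay among the controls, and the log2 fold change of EIF4B was 0.43 (SE 0.19, adjusted p = 0.297). EIF4A2, the second helicase gene, stood at 90.69, 68.42 and 74.19 FPKM in KO, against 64.79, 81.15 and 77.91 FPKM in vector control libraries. EIF4H, a cofactor of the helicase, and EIF4ENIF1, which transports EIF4E into the nucleus, were the other EIF4 genes without overlap and were named after their values were seen. EIF4H had a log2 fold change of -0.22 (adjusted p = 0.478) and EIF4ENIF1 one of 0.17 (adjusted p = 0.600). Groups did not overlap in 3 of the 12 EIF4 genes (25%), near the 23.8% of all genes.

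EIF3, an initiation factor of many subunits, binds the small subunit and bridges it to EIF4G. Its 12 genes with a row of their own had log2 fold changes from -0.26 (EIF3F) to 0.17 (EIF3A), with 2 above and 10 below 0 and a median of -0.14. The groups separated in 0 of the 12, against 23.8% of all genes, and the lowest adjusted p was 0.506. Robust limma called EIF3F, EIF3I and EIF3A, where 41.8% of all genes were called. The fit without KO 1 and vector control 1 called EIF3F, EIF3M and EIF3A, where 37.1% of all genes were called. EIF3A, the large scaffold subunit, stood at 27.72, 34.59 and 34.97 FPKM in KO, against 44.70, 21.76 and 24.00 FPKM in vector control libraries. EIF3B, its partner in the core, stood at 24.31, 32.04 and 30.94 FPKM in KO, against 43.21, 28.84 and 27.32 FPKM in vector control libraries. In both, vector control 1 was the highest of the 6 libraries. The level of the subunits differed more than their fold changes, with EIF3I between 124.12 and 184.00 FPKM and EIF3L between 7.86 and 9.30 FPKM, although both belong to the same complex.

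Among the 6 genes of start-codon recognition and subunit joining, 5 had a log2 fold change below 0 and the median was -0.24. EIF1, which keeps the scanning ribosome from settling on a wrong codon, stood at 110.70, 83.71 and 92.21 FPKM in KO, against 74.01, 142.84 and 146.10 FPKM in vector control libraries. EIF1B, its close paralog, stood at 8.39, 8.23 and 7.18 FPKM in KO, against 7.92, 12.41 and 12.02 FPKM in vector control libraries. For EIF1 and EIF1B alike, vector control 2 and 3 were the highest libraries and vector control 1 lay among or below the KO libraries, and their log2 fold changes were -0.28 and -0.38. That of EIF1 rested on single controls: it was -0.60 without vector control 1 (adjusted p = 0.0521), -0.13 without vector control 2 and -0.12 without vector control 3. EIF1 was called by robust limma (-0.64) and with KO 1 and vector control 1 both left out (-0.71). Those fits called 41.8% and 37.1% of all genes. EIF1AX, which works with EIF1 in scanning, stood at 15.73, 22.18 and 24.67 FPKM in KO, against 43.72, 18.69 and 19.62 FPKM in vector control libraries. EIF5, the GTPase activator of EIF2, stood at 14.29, 13.47 and 14.47 FPKM in KO, against 20.40, 7.77 and 11.76 FPKM in vector control libraries. EIF5B, which joins the large subunit, stood at 13.38, 18.55 and 16.85 FPKM in KO, against 24.78, 16.76 and 15.67 FPKM in vector control libraries. These 3 genes were highest in vector control 1, the reverse of EIF1, and adjusted p in this class was 0.367 or above.

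EIF5A, the hypusine-bearing factor that helps the ribosome through difficult peptide bonds, stood at 59.16, 116.57 and 108.11 FPKM in KO, against 130.22, 76.60 and 105.76 FPKM in vector control libraries. KO 1 was the lowest library and vector control 1 the highest. EIF5A2, its paralog, stood at 3.07, 2.71 and 2.56 FPKM in KO, against 3.29, 2.79 and 2.82 FPKM in vector control libraries (SD 0.097 on the log2 scale over all 6). EIF5AL1, between 1.46 and 4.50 FPKM, is nearly identical to EIF5A and its value is uncertain for that reason.

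**Figure D3:**
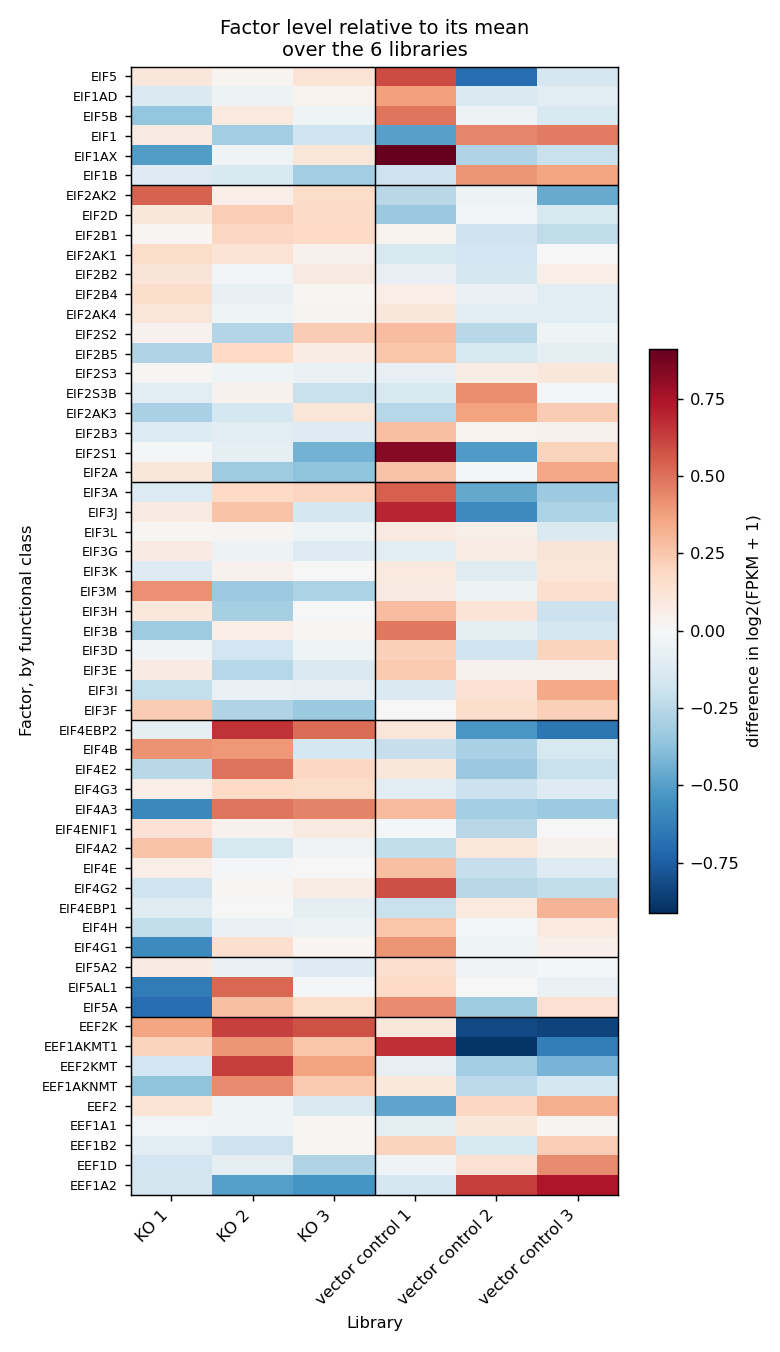
Level of each of the 57 factors (rows, by class) in each library (columns), as the difference in log2(FPKM + 1) from the factor's mean over the 6 libraries. Vector control 1 departs from vector control 2 and 3 in many rows, for example EIF1AX (43.72 against 18.69 and 19.62 FPKM) and EEF2 (512.95 against 816.09 and 900.74 FPKM).

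Much of the variation among the factors lay within the control group. The median size of the gap between vector control 1 and the mean of vector control 2 and 3 was 0.32 on the log2 scale over the 57 factors, whereas vector control 2 and 3 differed from each other by a median of 0.11. In the KO group the corresponding medians were 0.19 for KO 1 against the mean of KO 2 and 3, and 0.09 between KO 2 and 3. Vector control 1 lay nearer to the KO mean than to the mean of its fellow controls in 36 factors (63.2%), close to the 60.8% of all genes. Over all genes tested its median gap was 0.37, so the factors shared this feature with the rest of the transcriptome. What set vector control 1 apart was not tested.

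**Figure D4:**
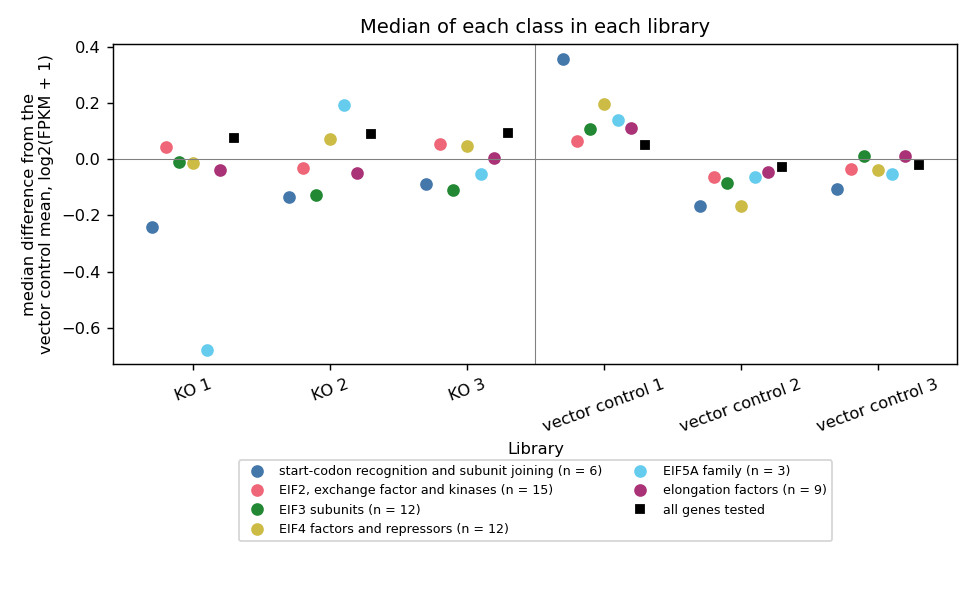
Median over each functional class of the difference from the vector control mean in log2(FPKM + 1), in each library (colour by class, black squares for all genes tested). The start-codon class reaches 0.36 in vector control 1 and -0.24 in KO 1. The EIF5A family, 3 genes, reaches -0.68 in KO 1, which is the value of EIF5AL1 alone, whose level is uncertain. In KO 1 EIF5A was also low (59.16 FPKM, against 130.22, 76.60 and 105.76 in the vector controls). EIF5A2 was not (3.07 FPKM, against 3.29, 2.79 and 2.82).

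Among the factors with a start window, the position of vector control 1 among the controls differed with the sequence at the start site. Factors without a window were left out. Among the 13 factors with the pyrimidine tract, vector control 1 lay above both other controls in 1 and below both in 7. Among the 31 factors with a start window and no tract it lay above both in 24 and below both in 4. The median difference of vector control 1 from the mean of the other controls was -0.15 with the tract and 0.37 without it, on the log2 scale. Over all 555 tested genes with the tract vector control 1 lay above both other controls in 198 (35.7%) and below both in 283. The lean of the tract factors to the low side was thus also seen among tract genes at large. Over all genes tested it lay above both in 49.9% and below both in 38.6%. Between knockout and control the median log2 fold changes were -0.06 with the tract and -0.07 without it. The figures for vector control 1 set 1 library against 2, with no test. The share over all tested genes with a window and no tract was not worked out.

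**Figure D5:**
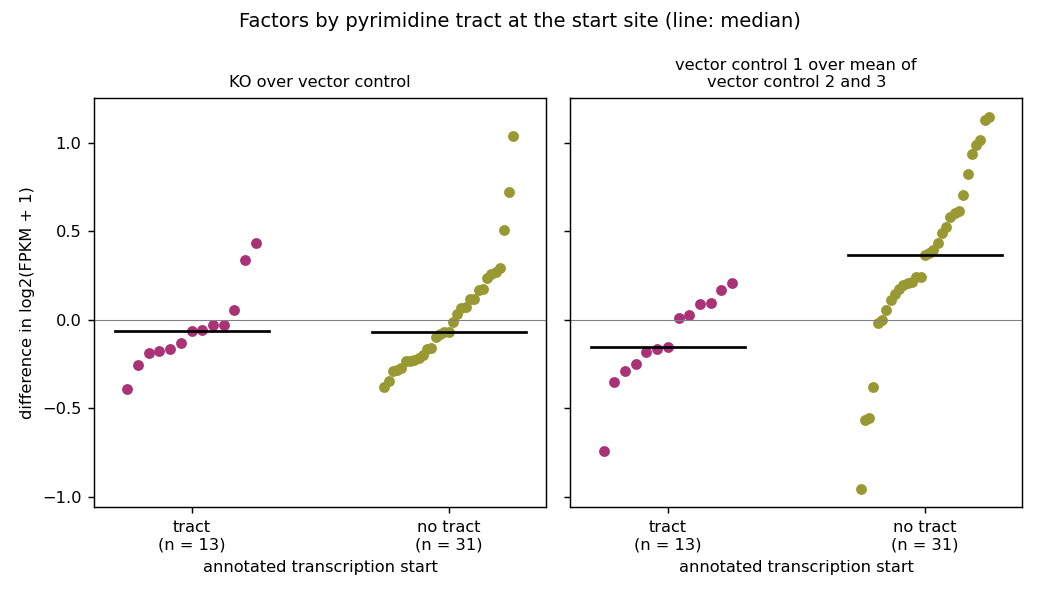
Difference in log2(FPKM + 1) for factors with and without a pyrimidine tract at an annotated start (points, line at the median), for KO over vector control (left) and for vector control 1 over the mean of vector control 2 and 3 (right). The medians are -0.06 and -0.07 in the left panel and -0.15 and 0.37 in the right panel.

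Of the 9 factors listed from textbook knowledge as having such tracts, 8 had a row of their own, and 5 of these had a start window, each with the tract. The 8 had log2 fold changes from -0.35 (EEF1D) to 0.43 (EIF4B), 7 of them below 0, with a median of -0.16 beside -0.06 for the other 49. Those 49 are not a group without the tract, since EIF2A, EIF2S3 and EIF3D, among others of them, held it. EEF1A1, EEF2, EEF1B2, EEF1D, EIF3E, EIF3F and EIF3H were the 7 below 0, and 0 of the 8 passed the test. EEF1A1 and EEF2 were only at -0.03 each. Vector control 1 lay above both other controls in 2 of the 8 and below both in 4. The 2 were EIF3E (49.98 FPKM against 43.57 and 43.58) and EIF3H (21.79 FPKM against 19.47 and 15.39), neither of which had a start window.

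Other genes of the translation machinery were taken from a list of 62 symbols, of which 49 were tested. In either direction 0 were called, where 1.35% of all genes were. The 49 genes had a median log2 fold change of 0.11, with 33 above and 16 below 0. All genes tested leaned the same way, with a median of 0.08, 5703 above and 3921 below 0. Groups did not overlap in 8 of the 49 (16.3%), against 23.8% of all genes. The 7 tested genes of the mTORC1 pathway had a median of 0.24, the 7 of the integrated stress response 0.19 and the 15 cap and poly(A) regulators 0.14. The termination and recycling genes (5) had a median of 0.05, the mitochondrial factors (7) 0.06 and the enzymes of hypusine, diphthamide and selenocysteine (8) 0.14. DPH6 and PPP1R15A, the ends of the list's range, and ATF4 were named after their values were seen. DPH6, which completes the diphthamide residue of EEF2, stood at 2.94, 3.71 and 4.43 FPKM in KO, against 1.65, 1.01 and 0.93 FPKM in vector control libraries (log2 fold change 1.10, SE 0.19, adjusted p = 0.0505). Its groups did not overlap, and it missed the threshold narrowly. PPP1R15A, a stress-induced subunit of the phosphatase that reverses EIF2 alpha phosphorylation, stood at 11.21, 11.48 and 9.77 FPKM in KO, against 11.52, 37.72 and 45.93 FPKM in vector control libraries (log2 fold change -1.26, SE 0.46, adjusted p = 0.233). For PPP1R15A, vector control 1 was level with the KO libraries, the arrangement also seen for EEF1A2. ATF4, the transcription factor translated when EIF2 is phosphorylated, stood at 111.35, 114.65 and 125.67 FPKM in KO, against 80.31, 108.00 and 120.61 FPKM in vector control libraries, and its groups overlapped.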

How the data were processed

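Expression was deposited as FPKM, 1 column per library, already scaled by the authors for depth and length. The tools listed in the submitters' processing notes are HISAT2, cutadapt and FastQC, with build hg19. Which tool computed FPKM, all versions, the annotation and whether counting used strand: not given in the sources used here. A search for whole-read steps reached a concentration of at most 0.325 (exact multiples give 1), so depth is unknown and the number of libraries limits precision. Libraries were grouped by title. Limma 3.58.1 in R 4.3.3 (lmFit, eBayes with a mean-variance trend, no covariates) was run on log2(FPKM + 1) over the 9624 rows that reached 1 FPKM in 3 or more libraries. The test was two-sided, with Benjamini-Hochberg adjustment over these rows and a threshold of 0.05. Fold changes on this scale understate changes of low genes. The fit was tested on simulated data. Intervals are limma's 95% intervals.

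Of 66 rows that matched the name pattern, 7 joined several genes and 2 lay below the filter, which left 57; all 57 reached 1 FPKM in every library. The members and gene lists were chosen with earlier results of these data known. Factors given with values in every library were 29 core factors and the 6 highest and 6 lowest fold changes, 34 in all, with paralogs; others are said to be chosen after their values were seen, or given by range. The labels state no pairing of same-numbered libraries, and their deviations were not positively correlated. Alternatives were another pseudocount, other filters, median scaling, quantile normalization, no trend, the replicate block, array weights in robust limma, libraries left out and a threshold of 0.1. A further gene of the lists is not reported here.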

Additional observations from a re-analysis of the deposited data

How the results depend on the processing

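The count of called factors stayed at 0 higher and 0 lower under the other pseudocount, both filters, median scaling, quantile normalization, no trend, the replicate block and a threshold of 0.1. Robust limma with array weights called 10 higher and 7 lower (41.8% of all genes, 4020), and leaving out KO 1 and vector control 1 together called 11 higher and 6 lower (37.1% of all genes, 3575). With single libraries left out the calls ran from 0 to 2 higher and from 0 to 2 lower, the 2 and 2 being without vector control 1, and all genes called ran from 25 to 1329. EEF2K, EEF1A2, EEF1AKMT1 and EIF1B were called in all 3 of these settings (robust limma, both libraries out, vector control 1 out), and 20 factors in at least 1 of them. In that order the 3 fits called 41.8%, 37.1% and 13.8% of all genes. The share of all genes called in all 3 or in at least 1 was not worked out, so neither count is a result about the factors. Vector control 1 was left out in 2 of these settings, so the 3 are not independent and the shared calls are no added support. All genes called were 241 without a filter, 59 with a filter at 5 FPKM, 7 with the replicate block and 274 at a threshold of 0.1. Of the other translation genes, robust limma called 10 higher and 4 lower, the fit without both libraries 11 and 5, single libraries left out 0 to 3 higher and 0 to 2 lower, and the threshold of 0.1 called 1 higher. The median log2 fold change of the factors was -0.14 after median scaling, 0.074 with robust limma and 0.082 without both libraries, and -0.10 to 0.01 with single libraries left out. The cause of these differences was not tested.

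Same-numbered KO and vector control libraries deviated in opposite directions (r = -0.374, -0.153 and -0.264 across genes), and no library correlated best with its own number. Deviations within a group sum to 0, so the values of this check depend on one another and on any unusual library. Same-numbered libraries of different groups could still have correlated positively. These values are a description, and a batch shared by number was not tested. With the replicate block the factors' median stayed at -0.06, and 0 were called.

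Of 34 named factors, 17 kept their sign throughout, and the other 17, none with a fold change above 0.29 in size, changed it. After median scaling EIF2AK4 was at -0.019, EIF2B4 at -0.011, EIF2S2 at -0.087, EIF4A2 at -0.038 and EIF4E at -0.036. After quantile normalization EEF2 was at 0.10, EIF2S3 at 0.10, EIF4E at -0.068, EIF4EBP1 at 0.00050 and EIF4G2 at 0.032. Robust limma gave EIF1AX 0.21, EIF3B 0.10, EIF4A2 -0.11, EIF4G1 0.0088, EIF4G2 0.24, EIF5A 0.24 and EIF5B 0.054. Without both libraries EIF1AX was at 0.28, EIF3B at 0.16, EIF4A2 at -0.16, EIF4G1 at 0.082, EIF4G2 at 0.28, EIF5A at 0.32 and EIF5B at 0.12.
With single libraries left out, the log2 fold change ran from -0.080 to 0.017 for EEF1A1, -0.27 to 0.13 for EEF2, -0.50 to 0.094 for EIF1AX, -0.12 to 0.15 for EIF2S2, -0.024 to 0.48 for EIF3A and -0.28 to 0.040 for EIF3B. It ran from -0.059 to 0.14 for EIF4A2, -0.062 to 0.18 for EIF4E, -0.21 to 0.21 for EIF4G2, -0.13 to 0.51 for EIF5 and -0.37 to 0.14 for EIF5A. Of the 34 named factors, 24 moved by over 1.5 times in at least 1 of these fits and 10 did not.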

Other observations

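Several factors had no row of their own because the table joins them with neighbouring genes, so their own level could not be separated. The row of EEF1G and TUT1, which holds the gamma subunit of the elongation exchange factor, stood at 165.06, 111.92 and 114.27 FPKM in KO, against 109.46, 176.39 and 192.16 FPKM in vector control libraries. As in EEF2, vector control 1 was the lowest library. The row of CD68, EIF4A1 and SENP3, which holds the main helicase gene, stood at 35.13, 45.34 and 37.36 FPKM in KO, against 37.62, 48.34 and 51.58 FPKM in vector control libraries. The row of EIF6 and MMP24OS, which holds the factor that keeps the ribosomal subunits apart, stood at 9.35, 10.65 and 10.35 FPKM in KO, against 12.65, 8.32 and 10.81 FPKM in vector control libraries. Limma called 0 of the joined rows.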
